A study of Mus musculus with 2 samples.

Results

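The family of miR-15, miR-16, miR-195 and miR-497 was examined in 2 small RNA libraries of jejunal smooth muscle, 1 from *Dnmt1*-WT and 1 from *Dnmt1*-KO mice. Its members were chosen by name, as all mature products of miR-15a, miR-15b, miR-16, miR-195a, miR-195b, miR-497a and miR-497b. Of 13 such names, 11 were among the 1147 entries of the table, with 5 products of the 5p arm and 6 of the 3p arm, and miR-195b and miR-497b were not listed. All mice were 15 days old, on a C57BL/6 background, and the labels of both groups give the transgene Tg(Myh11-cre,-EGFP)2Mik and the allele Dnmt1lox/lox. The *Dnmt1*-KO group lacked *Dnmt1*, the maintenance DNA methyltransferase, where Cre was driven by the *Myh11* promoter, which is active in smooth muscle. The paper describes the *Dnmt1*-WT group by the same Cre-eGFP transgene and names no floxed allele for it. Cre together with Dnmt1lox/lox would be the deleting genotype, so that shared label was not taken as the *Dnmt1*-WT genotype. The description of the *Dnmt1*-WT sample names the deleted genotype, against its title and genotype label, and the latter were followed. Each genotype had 1 library made from a peeled muscle layer. The methods give 4 mice per genotype, 2 males and 2 females, as the source of the RNA and do not say whether it was pooled for the library. The spread between animals is therefore unknown, and every difference is one between 2 libraries.

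miRNAs are short RNAs that guide Argonaute proteins to messenger RNAs, mainly through pairing of a few bases near the 5′ end, the seed. miR-15 and miR-16 are known for repressing drivers of the G1 to S step, such as cyclin D1, cyclin E1 and CDK6, and the survival factor BCL2. miR-195 represses the checkpoint kinase CHEK1 in the heart after birth, when cardiac muscle cells leave the cell cycle. Each miRNA is cut from 1 arm of a hairpin, and the opposite arm is usually degraded.

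The sequences show why these miRNAs form a family and which products tell its loci apart. The sequences are those of RefSeq for GRCm38.p6, which held all 11 listed members. The first 6 lines are the listed entries found to have the seed of miR-16-5p, among those with a RefSeq sequence, and the last 2 are the 3p products that separate both miR-16 hairpins. Capitals mark the seed, bases 2 to 8, and the prefix mmu, for mouse, is left out elsewhere.
mmu-miR-16-5p: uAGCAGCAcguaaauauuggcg
mmu-miR-195a-5p: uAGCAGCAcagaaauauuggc
mmu-miR-15b-5p: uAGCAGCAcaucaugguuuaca
mmu-miR-15a-5p: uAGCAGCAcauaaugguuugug
mmu-miR-497a-5p: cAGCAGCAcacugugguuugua
mmu-miR-322-5p: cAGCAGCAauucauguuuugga
mmu-miR-16-1-3p: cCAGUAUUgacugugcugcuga
mmu-miR-16-2-3p: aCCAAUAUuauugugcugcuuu

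All 5 of the 5p members held the seed AGCAGCA, which pairs with UGCUGCU in a target. The 6 products of the 3p arms had 6 different seeds. Outside the seed the 5p members diverged. miR-16-5p and miR-195a-5p differed at 2 of 21 bases, G10A and U11G, with the base of miR-16-5p first and positions counted from 1 at the 5′ end. miR-15a-5p and miR-15b-5p differed at 4 of 22 bases, A12C, G20A, U21C and G22A. miR-497a-5p differed from miR-16-5p at 11 of 22. Of 918 mature entries with a RefSeq sequence, 6 had this seed, the 5 members and miR-322-5p, the mouse counterpart of human miR-424. The sequence table also gives it to miR-195b, miR-6342, miR-6353 and miR-6419, none of which was listed.

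The members come from 3 loci, given here on GRCm38. Mir15a (chr14:61632027-61632110, minus strand) lies in an intron of the long noncoding RNA gene *Dleu2*. Mir16-1 (chr14:61631880-61631972, minus strand) begins 54 bases away and overlaps an exon of a *Dleu2* transcript. Mir15b (chr3:69009772-69009835, plus strand) and Mir16-2 (chr3:69009902-69009996, plus strand) are 66 bases apart in an intron of *Smc4*, which encodes a condensin subunit. Mir497 (chr11:70234717-70234800, plus strand) and Mir195a (chr11:70235042-70235135, plus strand) are 241 bases apart and overlap no other gene on their strand. Mir497b (chr11:70234692-70234816, minus strand) covers all 84 bases of Mir497 on the opposite strand. The sequence of miR-16-5p is identical at Mir16-1 and Mir16-2, so its reads cannot be assigned to either, and it was kept apart from the locus sums.

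Values are read counts multiplied by a factor close to 1 in each library, with a total of 5741906 for the *Dnmt1*-WT library and 4754677 for the *Dnmt1*-KO library. This deposited scale does not make the totals equal. Setting them equal multiplied every KO/WT ratio by 1.21, and the resulting ratio is given wherever it changed the direction of a family product or locus sum. Intervals are 95% counting intervals of the reads. They cover counting error only, not the spread between animals, and no p-value was computed. In bulk tissue, fewer cells of a type cannot be told apart from less RNA per cell. The labelled tissue was checked on a list of 7 smooth muscle products such as miR-143-3p and miR-145a-5p. All 7 were listed, and together they held 38.6% of the *Dnmt1*-WT library and 30.4% of the *Dnmt1*-KO library.

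miR-16-5p was by far the most abundant member in both genotypes. It was listed at 108958 in *Dnmt1*-WT and 67964.9 in *Dnmt1*-KO. Its share of all values was 1.90% in *Dnmt1*-WT (95% Wilson interval 1.89 to 1.91%) and 1.43% in *Dnmt1*-KO (1.42 to 1.44%). Among 1080 mature entries it ranked 12 in *Dnmt1*-WT and 13 in *Dnmt1*-KO. It was lower in *Dnmt1*-KO, with a KO/WT ratio of 0.624 (interval 0.618 to 0.630), or 0.753 with equal totals. Together, the 10 other products reached 8678 in *Dnmt1*-WT and 7124 in *Dnmt1*-KO, a ratio of 0.821 (0.796 to 0.847), or 0.991 with equal totals. All 11 products gave 117636 and 75089, a ratio of 0.638 (0.632 to 0.644), so the family sum followed miR-16-5p.

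**Figure D1:**
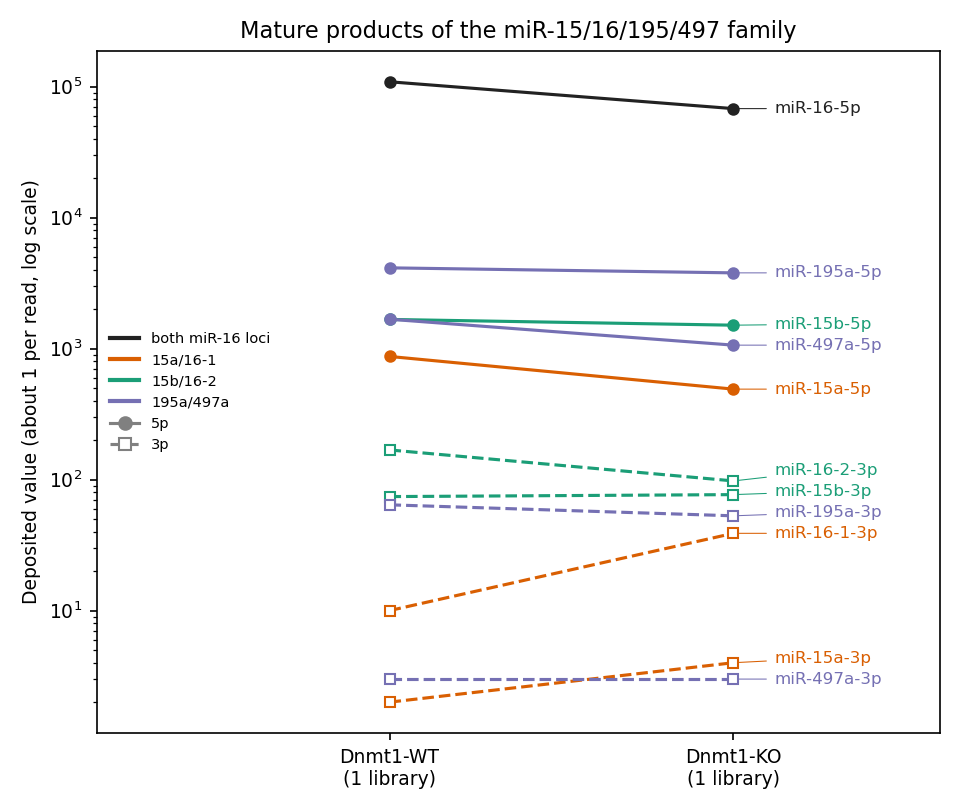
Deposited values (log axis, about 1 per read) of the 11 products in the 1 library of each genotype, coloured by locus, with filled circles for 5p and open squares for 3p products. miR-16-5p lies above all others, and miR-16-1-3p is the product with the steepest line upward, from 10 to 38.9.

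The next most abundant member was miR-195a-5p, with 4137 in *Dnmt1*-WT and 3788 in *Dnmt1*-KO. In *Dnmt1*-WT, miR-497a-5p at 1677 and miR-15b-5p at 1671 were next and differed by less than counting error. In *Dnmt1*-KO they had separated, with miR-15b-5p at 1510 and miR-497a-5p at 1063. miR-15a-5p was the scarcest 5p member in both libraries, at 871.5 and 490.6. The order of the 5p members was thus the same in both genotypes except for miR-497a-5p and miR-15b-5p. All 5 were lower in *Dnmt1*-KO on the deposited scale, and 3 with equal totals.

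At the 15a/16-1 locus, which lies in *Dleu2*, the sum of the products was 883.5 in *Dnmt1*-WT and 533.5 in *Dnmt1*-KO, a ratio of 0.604 (0.541 to 0.673), without miR-16-5p. Splitting miR-16-5p between both loci by their 3p products gave 6988 and 19888, a ratio of 2.85. This turned the direction and rested on the few reads of miR-16-1-3p. The split assumes that both miR-16 hairpins have the same ratio of 5p to 3p reads in each library, which was not tested. Nearly all of the sum without miR-16-5p was miR-15a-5p, with a ratio of 0.563 (0.503 to 0.630), the lowest of the 5p members. It stayed below 1 with equal totals, at 0.680. The 3p products of the locus were listed higher in *Dnmt1*-KO and are described with the other minor arms.

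At the 15b/16-2 locus, in *Smc4*, the sum was 1913 in *Dnmt1*-WT and 1684 in *Dnmt1*-KO, a ratio of 0.880 (0.824 to 0.940), also without miR-16-5p. With equal totals it was 1.06, and with miR-16-5p split by the 3p products, under the same untested assumption, it was 0.480. The ratio of miR-15b-5p was 0.904 (0.842 to 0.969), and with equal totals it was 1.09. Its 3p product was listed at 74.2 and 76.8, a ratio of 1.04 (0.742 to 1.44). miR-16-2-3p was listed at 168.5 and 97.7, a ratio of 0.580 (0.447 to 0.749), or 0.700 with equal totals. The directions of miR-15b-5p and of the locus sum thus depended on the scale, whereas miR-16-2-3p was lower on both.

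At the Mir195a/Mir497 locus the sum was 5881 in *Dnmt1*-WT and 4906 in *Dnmt1*-KO, a ratio of 0.834 (0.803 to 0.867). With equal totals it was 1.01. For miR-195a-5p the ratio was 0.915 (0.876 to 0.957), and equal totals raised it to 1.11. For miR-497a-5p it was 0.634 (0.587 to 0.685), and equal totals left it below 1, at 0.766. miR-195a-3p was listed at 64.2 and 52.9, a ratio of 0.824 (0.561 to 1.20), and miR-497a-3p at 3 in each library. So within this locus miR-497a-5p was lower on both scales, and miR-195a-5p had no direction that held on both.

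**Figure D2:**
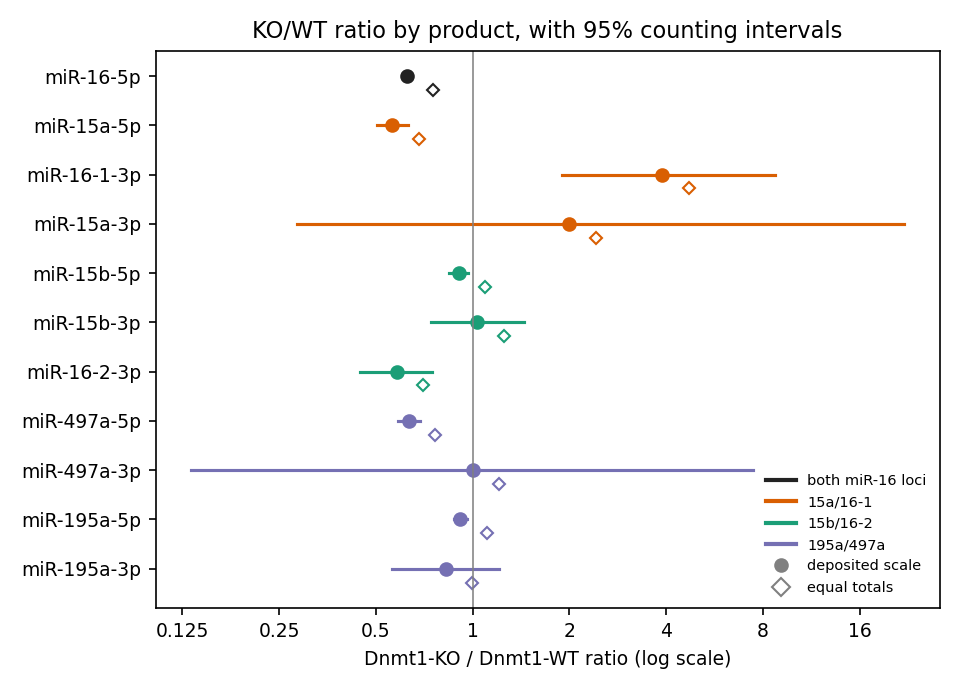
KO/WT ratio (log axis) of each product, grouped by locus; circles are ratios on the deposited scale, bars their 95% counting intervals, and diamonds the ratios with equal totals. Of the products whose interval leaves out 1, miR-16-5p, miR-15a-5p, miR-16-2-3p and miR-497a-5p lie below 1 on both scales, and miR-16-1-3p lies above 1 on both.

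The scale cancels when members are compared with each other, so these comparisons do not depend on it. A quotient of 2 KO/WT ratios was formed for this, with its counting interval. The 5p members fell into a lower and a higher pattern by it. miR-497a-5p stood at 0.405 per miR-195a-5p in *Dnmt1*-WT and 0.281 in *Dnmt1*-KO, a quotient of 0.693 (0.634 to 0.757), although their hairpins are neighbours. miR-15a-5p stood at 0.522 per miR-15b-5p in *Dnmt1*-WT and 0.325 in *Dnmt1*-KO, a quotient of 0.623 (0.547 to 0.710). Within the 15b/16-2 locus, the quotient of miR-16-2-3p over miR-15b-5p was 0.642 (0.496 to 0.831).

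miR-16-5p had the lower pattern. Its ratio was 0.681 times that of miR-195a-5p (0.651 to 0.713) and 0.690 times that of miR-15b-5p (0.643 to 0.741). Against miR-497a-5p the quotient was 0.984 (0.911 to 1.06), and against miR-15a-5p it was 1.11 (0.992 to 1.24), both intervals including 1. Of the 3p products of its hairpins, miR-16-2-3p over miR-16-5p gave 0.930 (0.725 to 1.19), whereas miR-16-1-3p over miR-16-5p gave 6.24 (3.10 to 12.5). miR-195a-5p over miR-15b-5p gave 1.01 (0.933 to 1.10). The lower pattern therefore held miR-16-5p, miR-15a-5p, miR-497a-5p and miR-16-2-3p, and the higher one miR-195a-5p and miR-15b-5p, and all 3 loci were represented in the former.

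Differences of this size between neighbours were also seen elsewhere in the table. Each hairpin was represented by its most abundant product that comes from no other hairpin, where the mean of that product was 100 or more, so that Mir16-2 entered with its minor product miR-16-2-3p. Over 45 pairs of adjacent hairpins within 5000 bases on 1 strand, the log2 KO/WT ratios of these products differed by a median of 0.41 (range 0.01 to 1.25). miR-497a-5p and miR-195a-5p differed by 0.53, and 17 of the 45 pairs, this one included, differed by at least as much. Among these 17 was also the family pair of miR-15b-5p and miR-16-2-3p, at 0.64. Counting error was not taken into account here, and it is larger for products near the minimum mean. Of the 45 pairs, 26 were on chromosome 12, where many miRNAs share transcripts. This comparison was chosen after the values were seen.

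The 3p arms were minor at miR-15a, miR-15b, miR-195a and miR-497a and over both miR-16 hairpins together, which could not be separated. In *Dnmt1*-WT the 3p share of a hairpin's reads ran from 0.164% for both miR-16 hairpins together (0.141 to 0.189%) to 4.25% for miR-15b (3.40 to 5.31%). In *Dnmt1*-KO the corresponding values were 0.201% (0.170 to 0.237%) and 4.84% (3.89 to 6.01%). For miR-195a the 3p share was 1.53% and 1.38%, with overlapping intervals. miR-15a-3p, at 2 and 4 (ratio 2, interval 0.285 to 22.0), and miR-497a-3p, at 3 in each library (ratio 1, interval 0.133 to 7.42), were too scarce to compare at this depth. The intervals of the 3p share overlapped between genotypes for all 5 of these, which is no test of a difference in the balance of arms. Most 3p reads of miR-16 came from miR-16-2, so the share of both hairpins together could not show a change at miR-16-1 alone.

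miR-16-1-3p, the minor product of the *Dleu2* locus, was listed at 10 in *Dnmt1*-WT and 38.9 in *Dnmt1*-KO. It was higher in *Dnmt1*-KO, with a ratio of 3.89 (1.90 to 8.71), or 4.70 with equal totals. With a pseudocount of 10 added to both values the ratio was 2.44. miR-15a-5p, cut from the neighbouring hairpin of the same host gene, was lower, and the quotient of the former over the latter was 6.91 (3.41 to 13.9), or 4.31 with that pseudocount. Of the 3p reads of both miR-16 hairpins, miR-16-1 gave 5.60% in *Dnmt1*-WT (3.08 to 10.03%) and 28.5% in *Dnmt1*-KO (21.6 to 36.5%). In both genotypes miR-16-2 gave most of them. Among the 221 mature entries with a mean from 10 to under 100, 7, miR-16-1-3p included, were above 0 in *Dnmt1*-WT and had a ratio at least as high. A further 9 were listed at 0 in *Dnmt1*-WT, where a ratio has no upper bound. This count was chosen after the values were seen.

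Because target recognition rests on the seed, the 6 entries found to share it were also summed. They gave 118735 in *Dnmt1*-WT and 77157 in *Dnmt1*-KO, a ratio of 0.650 (0.644 to 0.656), or 0.785 with equal totals. miR-16-5p held 91.8% of these reads in *Dnmt1*-WT (91.6 to 91.9%) and 88.1% in *Dnmt1*-KO (87.9 to 88.3%). miR-195a-5p went from 3.48% (3.38 to 3.59%) to 4.91% (4.76 to 5.06%), and miR-15b-5p from 1.41% (1.34 to 1.48%) to 1.96% (1.86 to 2.06%). miR-322-5p, which is no member by name and lies on the X chromosome, went from 1.20% (1.14 to 1.26%) to 3.03% (2.92 to 3.16%). The shares of miR-497a-5p (1.41% and 1.38%) had overlapping intervals. The share of miR-15a-5p was lower in *Dnmt1*-KO (0.734%, interval 0.687 to 0.784%, and 0.636%, interval 0.582 to 0.694%). Its intervals overlapped slightly, which does not exclude a difference beyond counting error. Without miR-16-5p, the other 5 entries summed to 9777 and 9192, a ratio of 0.940 (0.914 to 0.967) that passed to 1.14 with equal totals.

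**Figure D3:**
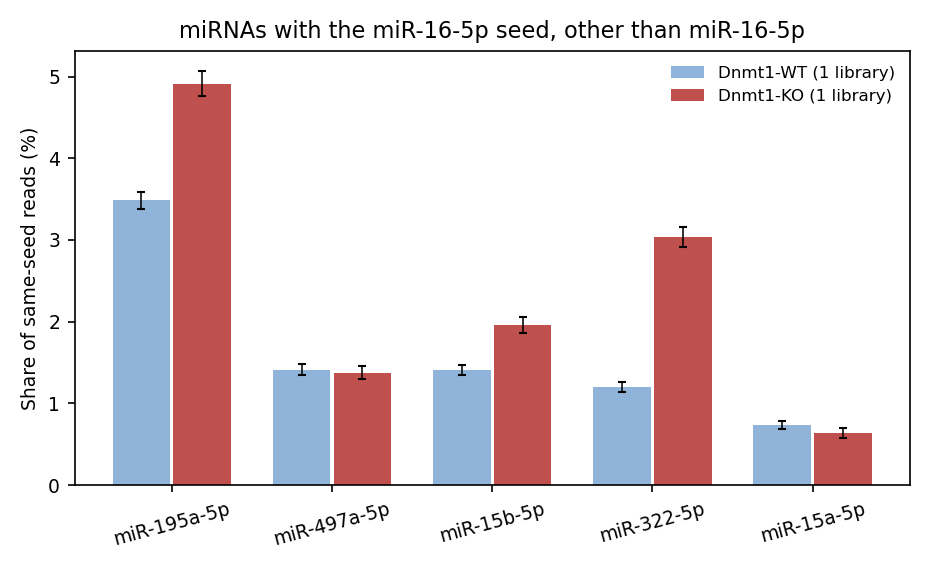
Share (%) of the reads of the 6 listed entries found to have the miR-16-5p seed, for the 5 entries other than miR-16-5p, in the 1 library of each genotype, with 95% Wilson intervals as error bars. miR-322-5p, miR-195a-5p and miR-15b-5p took larger shares in *Dnmt1*-KO, and miR-497a-5p had similar shares of 1.41% and 1.38%.

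The members were also counted against the whole table by a 2-fold threshold. Of the 11 members, 0 were at least 2-fold lower in *Dnmt1*-KO, a call met by 23.1% of the 1147 entries. There were 2 at least 2-fold higher, miR-16-1-3p and miR-15a-3p, against 26.7% of all entries, and miR-15a-3p rested on 4 reads in *Dnmt1*-KO. Where the mean was 100 or more, 0 of 6 members were called in either direction, beside 8.86% lower and 6.33% higher of 316. At a threshold of 1.5-fold, 4 of these 6 members were lower, beside 20.9% of the 316, namely miR-16-5p, miR-15a-5p, miR-497a-5p and miR-16-2-3p. With equal totals 0 of the 6 were, beside 11.4%. The median log2 ratio of the 6 members was -0.67, and over 313 such entries above 0 in both libraries it was -0.03. Over all 1147 entries, 4 of 11 members were at least 1.5-fold lower, beside 29.3%.

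**Figure D4:**
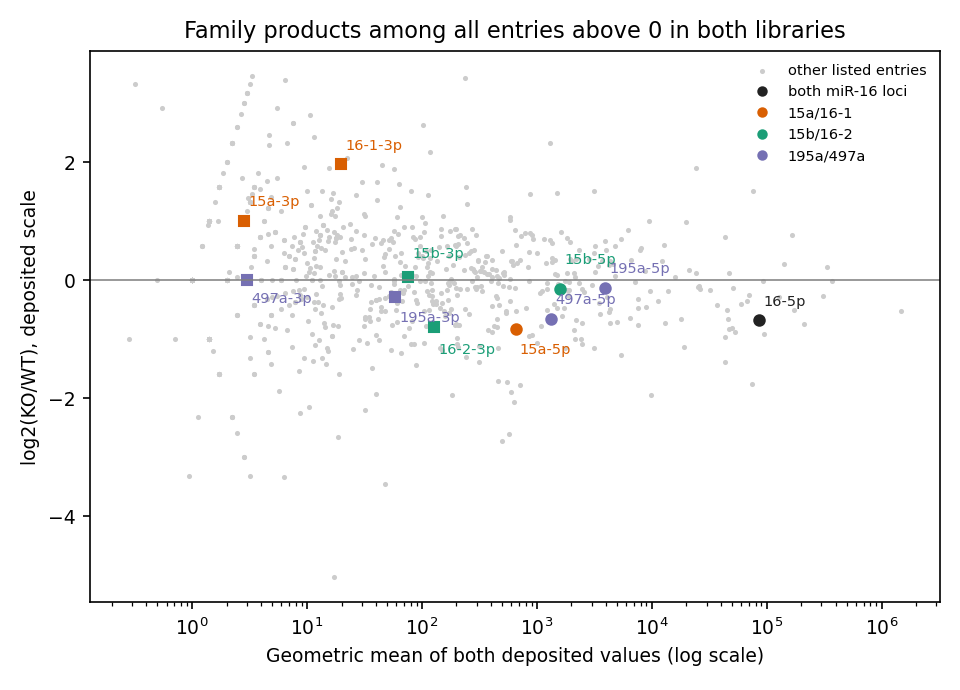
log2(KO/WT) on the deposited scale against the geometric mean of both values (log axis) for the 794 entries above 0 in both libraries, in grey, with the family products coloured by locus, circles for 5p and squares for 3p. The 5p members lie below 0, and miR-16-1-3p at 1.96 lies among the higher entries of like abundance.

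The abundant miRNAs most like miR-16-5p by their KO/WT ratio were miR-30e-3p, miR-130a-3p and miR-24-3p, taken from 132 mature entries outside the family with a mean of at least 1000. Likeness here is the distance between log2 ratios over only 2 libraries. miR-30e-3p was listed at 2758 and 1729, a ratio of 0.627 (0.590 to 0.666). miR-130a-3p was listed at 22730 and 14326, a ratio of 0.630 (0.617 to 0.644). miR-24-3p, also known for cell-cycle targets, was listed at 57521 and 36540, a ratio of 0.635 (0.627 to 0.644). Of the 132 entries, 24 had a lower ratio than miR-16-5p.

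Relatives of the family by sequence did not all follow miR-16-5p. They form a wider group with miR-103 and miR-107, which carries AGCAGC at or near the 5′ end, and 4 products of that group outside the family were fixed as a list. miR-103-3p, known for a role in insulin signalling, was listed at 12930 and 10079, a ratio of 0.780 (0.759 to 0.800), or 0.941 with equal totals. miR-107-3p, which differs from miR-103-3p by G22C, was listed at 1438 and 839, a ratio of 0.584 (0.535 to 0.636). The quotient of miR-107-3p over miR-16-5p was 0.936 (0.859 to 1.02), its interval including 1, whereas that of miR-103-3p was 1.25 (1.22 to 1.28). miR-322-5p, listed at 1421 and 2341, was higher in *Dnmt1*-KO at a ratio of 1.65 (1.54 to 1.76), and its quotient over miR-16-5p was 2.64 (2.47 to 2.82). Its cluster partner miR-503-5p, at 12 and 14, had a ratio of 1.17 (0.498 to 2.75), too wide for a direction.

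Of 17 other miRNAs known for targets at the G1 to S step, 10 were lower and 7 higher in *Dnmt1*-KO, on the deposited scale as with equal totals. There were 5 at least 2-fold lower and 1 at least 2-fold higher, beside 9.94% and 11.4% of 543 entries whose mean was 10 or more. With equal totals the counts were 3 and 3, beside 5.34% and 19.5%. miR-20a-5p (1399 and 230.4) and miR-17-5p (1322 and 383.9), of the proliferation-linked miR-17-92 cluster, had ratios of 0.165 (0.143 to 0.189) and 0.290 (0.259 to 0.326). The 3 members of the miR-29 family, which also repress matrix genes, had ratios from 0.406 to 0.498. miR-34a-5p, a target of p53, was listed at 528.5 and 1455, a ratio of 2.75 (2.49 to 3.05). miR-221-3p, which represses the inhibitor p27, was listed at 1232 and 2161, a ratio of 1.75 (1.63 to 1.88). The median log2 ratio of the 17 was -0.65, whereas their summed level was 1.03 times as high in *Dnmt1*-KO, a sum made up mostly of miR-26a-5p (312086 and 362597).

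Markers of several cell types differed between the same libraries. The summed level of the smooth muscle list was 0.652 times as high in *Dnmt1*-KO, with all 7 products lower. Most of that sum was miR-143-3p (1777100 and 1232984), and miR-16-5p over miR-143-3p gave a quotient of 0.899 (0.890 to 0.908). Every other product of the list had a lower ratio than the 0.624 of miR-16-5p, from 0.259 for miR-143-5p to 0.598 for miR-145a-5p. Red cells are rich in miR-16 as well as in miR-451a and miR-486a. The 4 listed red cell products had sums of 12745 (*Dnmt1*-WT) and 47217 (*Dnmt1*-KO), all 4 higher. Nearly all of both sums was miR-486a-5p (12591.6 and 46756.4), whereas miR-451a was listed at 141.4 and 420.8. The interval of miR-144-5p (10 and 19) included 1, at 0.836 to 4.55. All 5 leukocyte products, miR-142a among them, were higher as well, with sums of 1676 and 4843. Of the 8 epithelial products 4 were higher and 4 lower on the deposited scale, and all 8 were higher with equal totals. Both endothelial and both listed mesenchymal products were higher, and 1 of 3 neural products was higher. The sums of the 8 epithelial, 2 endothelial and 2 listed mesenchymal products were 1.25, 1.42 and 1.53 times as high. That of the 3 neural products was 0.711 times as high. The rise of the epithelial sum came mostly from miR-192-5p (4619.1 and 8271.5), and that of the mesenchymal sum mostly from miR-214-3p (896.5 and 2488.9). miR-486b-5p and miR-199a-3p were not listed. No other product of these lists was at 0 in either library. The part of these cell types in the values of the family was not tested.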

How the data were processed

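Small RNA from *Dnmt1*-WT and *Dnmt1*-KO jejunal tunica muscularis (1 library each) was sequenced with an Illumina TruSeq Small RNA kit after mirVana extraction. The deposited values are, as worked out from the values themselves, read counts per miRNA times a factor per library. The submitters' processing notes name Bowtie and mm10. The aligner version, the miRNA release, the treatment of shared reads and the scaling are not given in the sources used here. A column with the authors' own fold change was not used. Values between 20 and 300 were multiples, within 0.051, of 1.00287 in 88.6% of cases for WT and of 0.99721 in 90.3% for KO. These steps gave 5725494 and 4767985 implied reads. The remaining values were not whole reads. Molecular identifiers are not named in the sources used here, and PCR copies of a molecule may count as separate reads.

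Each KO/WT ratio carries an exact interval (Clopper-Pearson, from the implied reads of both libraries), a share of a library or hairpin a Wilson interval, and a quotient of ratios a log-scale interval from its 4 read counts. The intervals were tested on simulated data. Ligation bias between sequences affects levels compared between miRNAs, and cancels in KO/WT ratios where it is equal in both libraries. Members and lists were chosen with earlier results of these data known. *Dnmt1* itself is not measured by small RNA, so the genotype labels were not checked. Named miRNAs were all family products, the 4 relatives, the 17 other cell-cycle miRNAs, the 3 entries nearest miR-16-5p in log2 ratio, entries with its seed and cell type markers. Sequences came from RefSeq (GRCm38.p6), hairpins and host genes from GENCODE on GRCm38. Python 3.11.15, scipy 1.17.1 and matplotlib 3.10.9 were used.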

Additional observations from a re-analysis of the deposited data

How the results depend on the processing

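With equal totals the KO/WT ratio was 0.771 for the family, 0.753 for miR-16-5p, 0.729 for 15a/16-1, 1.06 for 15b/16-2, 1.01 for Mir195a/Mir497, 1.09 for miR-15b-5p and 1.11 for miR-195a-5p, so the last 4 passed to above 1. With totals equal without miR-143-3p these were 0.719, 0.702, 0.680, 0.991, 0.939, 1.02 and 1.03, where only miR-15b-5p and miR-195a-5p were above 1. Centring the median gave 0.654 for the family and 0.639 for miR-16-5p. Splitting miR-16-5p between its hairpins by their 3p products gave 2.85 for 15a/16-1 and 0.480 for 15b/16-2, which reversed the former. This split rests on 10 and 38.9 for miR-16-1-3p and on an equal ratio of 5p to 3p reads at both hairpins, which was not tested. The cause of the reversal was not tested either. A minimum mean of 10 left 62 of 543 entries (11.4%) and 1 of 9 members at least 2-fold higher. At that minimum, 54 entries (9.94%) and 0 members were at least 2-fold lower. A minimum mean of 100 left 20 of 316 entries (6.33%) and 0 of 6 members higher, and 28 entries (8.86%) and 0 members lower. These minimums test fewer entries. A 1.5-fold threshold gave 4 of 11 members lower beside 29.3% of all entries, 0 beside 24.3% with equal totals, and 2 beside 26.2% with totals equal without miR-143-3p. Of 131 alternative values, 102 kept their direction and stayed within counting error or within 1.5 times the count. With 1 library per genotype no replicate could be left out. No paired analysis was possible because each genotype had 1 library. The intervals of miR-15a-3p and miR-497a-3p, with under 10 reads in each library, were too wide for a direction.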
